A study of Mus musculus with 12 samples.

Results

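The SLC25 family is a large set of carrier proteins, most of which sit in the inner mitochondrial membrane. The carriers examined here were the protein-coding mouse genes whose symbol starts with Slc25a, found by Ensembl identifier in the deposited expression table. The GENCODE annotation holds 47 such genes, and 37 of them are among the 12591 genes of the table, which the authors limited to genes that reached 1 CPM (reads scaled to the size of the library) in every sample. The 10 others (Slc25a2, Slc25a18, Slc25a21, Slc25a31, Slc25a34, Slc25a35, Slc25a41, Slc25a45, Slc25a48 and Slc25a54) are not in the table and were not analysed here.

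RNA was sequenced from confluent mouse embryonic fibroblasts of the strain C57 PER2::LUC, prepared from heterozygous knock-in mice whose circadian clock protein PER2 carries a luciferase tag. Cells were treated for 24 h with 10 μM Deazaneplanocin A (DZ, an inhibitor of the S-adenosylhomocysteine hydrolase AHCY), 1 mM adenine or 1 mM S-adenosylmethionine (SAM, the methyl donor of the cell), or received none of these (CTL). All dishes, CTL included, contained 3.3 mM HCl, and each of the 4 groups had 3 replicate dishes. The authors describe their PER2::LUC fibroblasts as immortalized and list them as a cell line. Nothing in the records says that the dishes came from separate embryos, so p-values measure the spread between these dishes, which may be technical.

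Mitochondrial carriers move substrates that cannot cross the inner membrane on their own. A carrier binds its substrate on one face of the membrane, closes behind it and opens to the other face, mostly in exchange for another substrate. Through them ADP and phosphate enter for ATP synthesis, citrate and dicarboxylates pass between the citric acid cycle and the cytosol, and amino acids, nucleotides, NAD, folate, SAM, iron and glutathione are shared between cytosol and matrix. SAM is made outside the mitochondria and reaches the methyltransferases of the matrix through Slc25a26.

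The deposited values are log2 CPM on normalized library sizes. Each gene was tested with limma in a single model of the 12 libraries, with Benjamini-Hochberg adjustment over all 12591 genes, and was called changed at a false discovery rate (FDR) under 0.01. The reads on the listed genes numbered 45649534 to 56789090 per library, and replicate dishes differed by more than counting noise. SAM dish 3 stood apart, at 19.1 and 15.7 (chi-square of the reads over its degrees of freedom) against the other SAM dishes, while all other pairs of replicates were at 4.76 to 7.07. Without it the carriers called were 26 under SAM against CTL, 15 between SAM and adenine and 29 between DZ and SAM, against 27, 15 and 28 with it. The 15 were not all the same carriers, since Slc25a3 and Slc25a43 were lost and Slc25a13 and Slc25a37 were gained. Between DZ and SAM, Slc25a4 and Slc25a36 were gained and another carrier was lost. Shares of all genes were not counted without this dish. Of 12 fibroblast markers 10 were in the table (Dcn and Lum were not), with a summed level of 22050 to 22490 CPM in CTL, 27880 to 28460 under DZ, 24730 to 27020 under adenine and 16460 to 17790 under SAM. Of 8 leukocyte markers a single one, Cd68, was in the table, at 3.03 to 4.0 CPM in CTL, 2.74 to 3.79 under DZ, 10.8 to 12.4 under adenine and 15.6 to 17.7 under SAM, and 0 of 5 epithelial, 0 of 5 endothelial and 0 of 5 muscle markers were. These marker levels moved with the treatments, and their part in the results on the carriers was not tested. In such bulk samples, fewer cells of a type and less RNA per cell cannot be told apart.

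All 3 treatments changed part of the family, and the changes were mostly small and ran in both directions. Under DZ 17 of 37 carriers were called (45.9%, against 45.9% of all genes), 9 of them higher (22.6% of all genes) and 8 lower (23.4%) than in CTL. Under adenine 23 were called (62.2%, against 61.6% of all genes), 8 higher (30.6% of all genes) and 15 lower (31%). Under SAM 27 were called (73.0%, against 69.3% of all genes), 8 higher (33.7% of all genes) and 19 lower (35.7%). The share of carriers called in either direction was close to that of the whole table in each comparison. Under adenine and SAM more carriers were called lower than higher, while over all genes the shares called higher and lower were near each other. With plain read totals in place of the authors' normalized library sizes, which moves the log2 fold changes of all genes under SAM up by a median of 0.12, 22 carriers were called under SAM, 11 higher and 11 lower. Shares of all genes with that scaling were not counted, so this split has no background beside it.

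Large changes were fewer. Where a log2 fold change of 0.5 or more in size was also required, 5 carriers were called under DZ (13.5%, against 12.2% of all genes), 5 under adenine (13.5%, against 26.9%) and 8 under SAM (21.6%, against 35.1%). Over the 37 carriers the log2 fold changes had medians of 0.03 (DZ), -0.10 (adenine) and -0.12 (SAM), against -0.0057, -0.0030 and -0.015 over all genes. With plain read totals the medians for adenine and SAM were -0.041 and 0.0029, against 0.059 and 0.11 over all genes. The median for adenine was -0.15 with median centring (-0.054 over all genes) and -0.17 with quantile normalization (-0.032 over all genes). In 22 carriers the DZ dishes did not overlap the CTL dishes (59.5%, against 65.4% of all genes). The same held for 24 carriers under adenine (64.9%, against 74.7%) and 30 under SAM (81.1%, against 77.6%).

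The 3 treatments were compared with the same CTL dishes, so their lists are not independent. In all 3 comparisons 11 carriers were called (29.7%, against 28.2% of all genes), and 8 of them moved in 1 direction (21.6%, against 20.1%). These were Slc25a10, which rose, and Slc25a3, Slc25a4, Slc25a23, Slc25a27, Slc25a30, Slc25a37 and Slc25a47, which fell, although under SAM Slc25a3 and Slc25a4 did not keep their direction under another scaling (given with their values). Slc25a25, Slc25a33 and Slc25a51 were called in all 3 comparisons with mixed directions. In none of the 3 were Slc25a13, Slc25a14, Slc25a43 and Slc25a53 called (10.8%, against 15.2% of all genes).

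**Figure D1:**
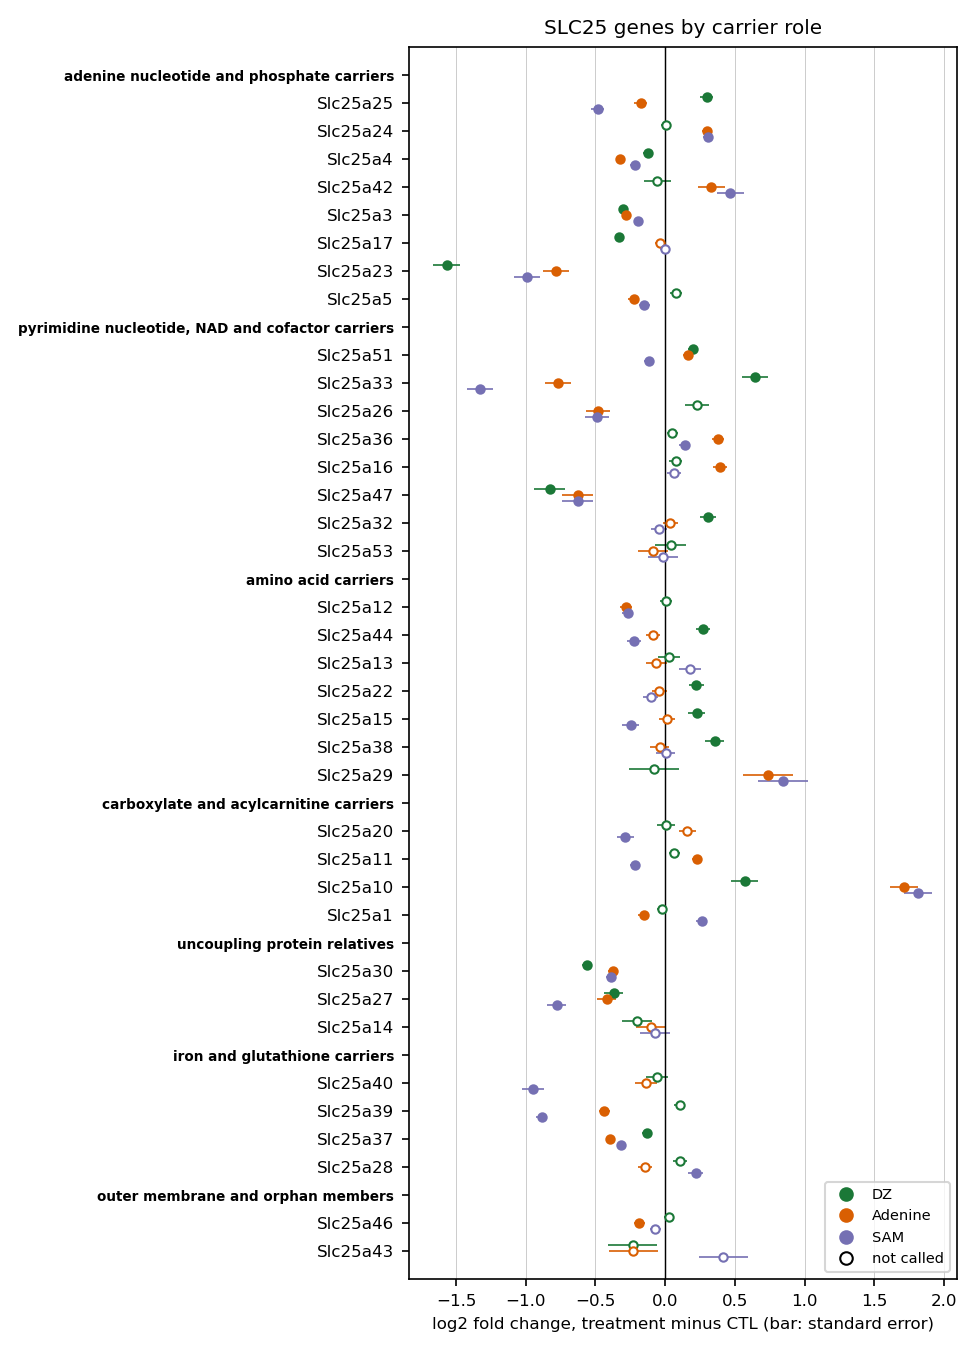
Log2 fold change of 36 of the 37 SLC25 genes under DZ, adenine and SAM against CTL (x axis, log2 scale; points, limma estimate; bars, standard error; open points, not called at an FDR of 0.01), grouped by the substrate of the carrier. Most points lie within 0.5 of 0, with Slc25a10 far to the right under adenine (1.72) and SAM (1.82), Slc25a23 far to the left under DZ (-1.57), and Slc25a33 on opposite sides under DZ (0.65) and SAM (-1.33).

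Carriers differed widely in abundance. Per kilobase of merged exons (RPKM, from reads recovered from the deposited values), Slc25a4 (167 ± 3.6 RPKM, SD, n = 3), Slc25a5 (122 ± 5.5) and the phosphate carrier Slc25a3 (75.9 ± 1.1) stood at the top in CTL, followed by Slc25a37 (55.3 ± 1.0), Slc25a39 (44.6 ± 0.50), Slc25a30 (26.9 ± 0.58), Slc25a1 (22.9 ± 0.45) and Slc25a24 (20.6 ± 0.59). The first 11 places in this order, down to Slc25a51 (9.81 ± 0.29 RPKM), were held without overlap between the dishes of neighbours. In the next places, Slc25a44, Slc25a36, Slc25a28, Slc25a33, Slc25a46 and Slc25a12 (8.80 down to 6.84 RPKM), each carrier overlapped its neighbour in the order. At the bottom were Slc25a43 (0.496 ± 0.031 RPKM), Slc25a53 (0.353 ± 0.034) and Slc25a29 (0.257 ± 0.062), and the dishes of the last pair overlapped. The 3 most abundant carriers moved by at most 0.32 on the log2 scale in any treatment, and the log2 fold changes of 0.5 or more were found among carriers at 0.257 to 44.6 RPKM.

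**Figure D2:**
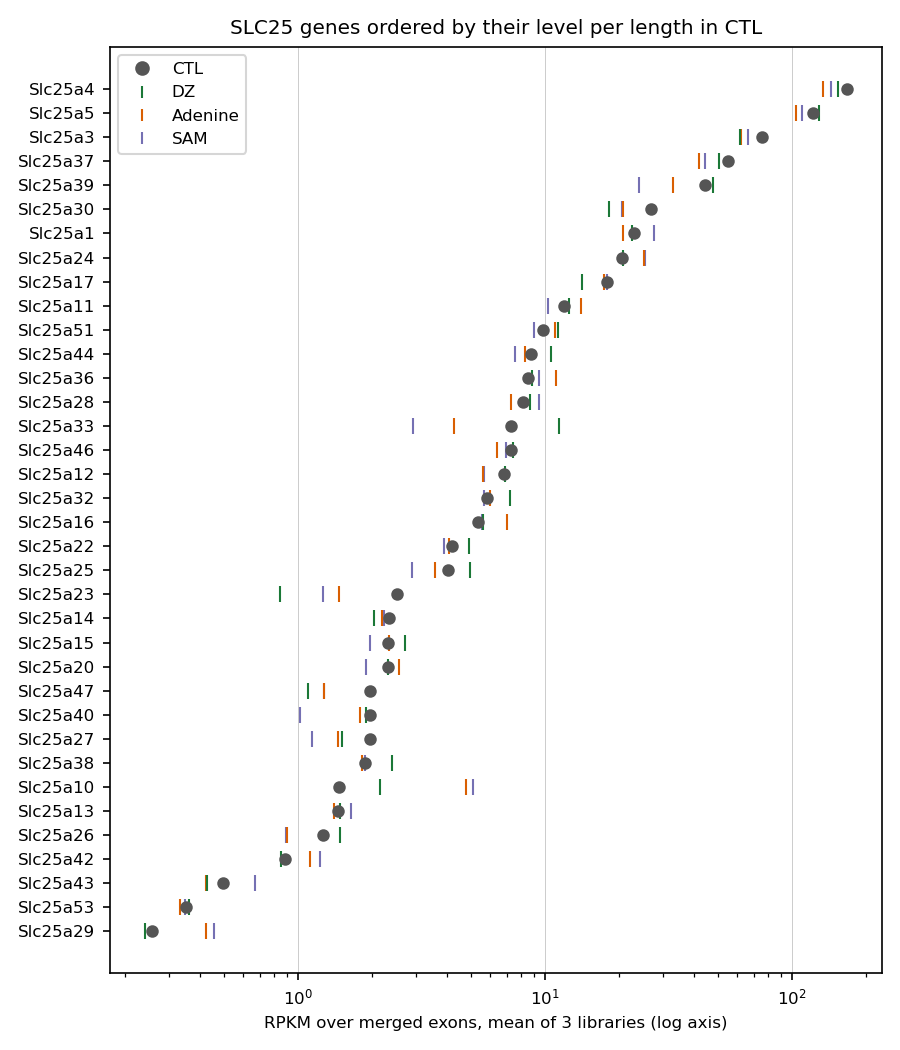
RPKM over merged exons (x axis, log scale) of 36 of the 37 SLC25 genes, ordered by their CTL level, as means of 3 libraries (grey points, CTL; coloured ticks, treatments). For Slc25a4, Slc25a5 and Slc25a3, at the top, the ticks lie within 0.32 of the CTL point on the log2 scale, and they lie far from it for Slc25a10, Slc25a23 and Slc25a33.

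The promoters of 4 carriers are shown, so that their sequences can be read beside the changes. They are those of Slc25a33 and Slc25a36, which carry the same kind of substrate and moved apart, of Slc25a10, the carrier with the largest rise, and of Slc25a23, the carrier with the largest fall. Each is the 250 bases before a RefSeq transcription start on GRCm38.p6, read 5′ to 3′ on the strand of the gene, and capitals mark the motif matches (CACGTG, the E-box bound by CLOCK and BMAL1 and by MYC, and TGACGTCA, the cAMP response element).
Slc25a33 (chr4:149774268-149774517, minus strand): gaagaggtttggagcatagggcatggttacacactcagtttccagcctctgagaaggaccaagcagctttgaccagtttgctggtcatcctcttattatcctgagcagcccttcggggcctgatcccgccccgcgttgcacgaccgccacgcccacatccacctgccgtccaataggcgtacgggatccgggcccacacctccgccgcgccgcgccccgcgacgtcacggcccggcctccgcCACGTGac
Slc25a36 (chr9:97111042-97111291, minus strand): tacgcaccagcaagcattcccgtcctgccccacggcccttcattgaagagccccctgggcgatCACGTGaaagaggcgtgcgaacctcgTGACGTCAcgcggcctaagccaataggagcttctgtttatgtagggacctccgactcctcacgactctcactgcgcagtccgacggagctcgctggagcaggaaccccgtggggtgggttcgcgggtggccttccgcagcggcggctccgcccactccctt
Slc25a10 (chr11:120491587-120491836, plus strand): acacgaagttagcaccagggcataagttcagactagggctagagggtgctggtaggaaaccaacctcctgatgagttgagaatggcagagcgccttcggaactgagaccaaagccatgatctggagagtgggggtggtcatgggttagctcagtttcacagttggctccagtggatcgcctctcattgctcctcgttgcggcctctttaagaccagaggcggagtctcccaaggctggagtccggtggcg
Slc25a23 (chr17:57059864-57060113, minus strand): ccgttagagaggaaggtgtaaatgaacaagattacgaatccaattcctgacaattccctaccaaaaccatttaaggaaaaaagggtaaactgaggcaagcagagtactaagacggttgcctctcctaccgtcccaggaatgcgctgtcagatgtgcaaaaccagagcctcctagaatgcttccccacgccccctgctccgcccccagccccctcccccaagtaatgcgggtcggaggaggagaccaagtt

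In Slc25a33 the E-box begins 8 bases before the start, and in Slc25a36 an E-box begins 187 bases and a cAMP response element 161 bases before it. The windows of Slc25a10 and Slc25a23 hold none of the 4 motifs searched on both strands, which besides these were TGATGNAA (an ATF4-type site) and the palindromic NRF1-type site. RefSeq windows were found for 29 of the 37 carriers, 38 windows in all. The E-box was in 7 of these 38 (18.4%, against 6.02% of all 32851 RefSeq windows), those of Slc25a1, Slc25a13, Slc25a14, Slc25a15, Slc25a33 and Slc25a36. The cAMP response element was in 2 (5.26%, against 1.55%), those of Slc25a25 and Slc25a36, the NRF1-type site in that of Slc25a3 (2.63%, against 3.74%) and the ATF4-type site in 0 of 38 (against 3.45%). The 32851 windows were not limited to genes of the expression table, whereas those of the carriers were, so these shares come from unlike sets. The 6 carriers with an E-box did not share a response, since under SAM Slc25a1 and Slc25a36 rose, Slc25a15 and Slc25a33 fell, and Slc25a13 and Slc25a14 were not called. A match of letters describes the window and is not a site of binding.

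Among the 8 adenine nucleotide and phosphate carriers, 5 were called under DZ (Slc25a25 higher, 4 lower), while adenine and SAM each had 7 called (Slc25a24 and Slc25a42 higher, 5 lower). The shares called were 62.5% under DZ and 87.5% under adenine and SAM, against 45.9%, 61.6% and 69.3% of all genes. Slc25a23, a calcium-regulated carrier that exchanges ATP-Mg for phosphate and so sets the adenine nucleotide pool of the matrix, had the largest fall of the family. It is on chromosome 17 (57350705 to 57366905, GRCm39) and measured 3.78, 3.97 and 3.99 log2 CPM in CTL, 2.17, 2.43 and 2.44 under DZ, 3.25, 3.10 and 3.04 under adenine, and 2.93, 2.83 and 3.01 under SAM. Each treated dish lay below each CTL dish, and the DZ dishes were the lowest of all. From 3.91 ± 0.12 log2 CPM (SD, n = 3) in CTL it fell by 1.57 under DZ (standard error 0.095, limma adjusted p = 3.4e-09), to 0.337 of the CTL level, by 0.78 under adenine (limma adjusted p = 2.3e-06) and by 0.99 under SAM (limma adjusted p = 1.15e-07). Its relatives with the same kind of substrate moved otherwise, as Slc25a24 rose under adenine (0.30) and SAM (0.31) and was at 0.00 under DZ (95% interval -0.07 to 0.07), while Slc25a25 rose under DZ (0.30) and fell under adenine (-0.17) and SAM (-0.49). The call of Slc25a25 under adenine was lost without CTL dish 1 or 2 or adenine dish 1 or 3 (-0.17 to -0.16), and with plain read totals. On the opposite strand Slc25a24 overlaps Gm19391 over 603 bases and Slc25a25 overlaps Naif1 over 1014 bases.

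Slc25a4 and Slc25a5 encode the ADP/ATP carriers that export the ATP made by the respiratory chain. Slc25a4 (chromosome 8, 46656538 to 46664325) measured 8.92, 8.95 and 8.98 log2 CPM in CTL, 8.84, 8.80 and 8.83 under DZ, 8.68, 8.60 and 8.61 under adenine, and 8.71, 8.68 and 8.81 under SAM. It was highest in CTL in each case without overlap, and fell by 0.13 under DZ (standard error 0.035, limma adjusted p = 0.00618), by 0.32 under adenine (limma adjusted p = 6.46e-07) and by 0.22 under SAM (limma adjusted p = 3.46e-05), a direction that turned under SAM with quantile normalization (0.039). The call under DZ was lost without CTL dish 2 or 3 or any 1 of the DZ dishes (-0.13 to -0.11), with plain read totals, with quantile normalization and without a variance trend, and that under SAM was lost with plain read totals (-0.095). Slc25a5 (chromosome X, 36059223 to 36062462) measured 7.70, 7.72 and 7.82 log2 CPM in CTL, 7.80, 7.80 and 7.87 under DZ, 7.53, 7.57 and 7.46 under adenine, and 7.55, 7.56 and 7.67 under SAM. Here the DZ dishes overlapped CTL (0.08, 95% interval -0.01 to 0.17), while the adenine and SAM dishes lay below CTL, with falls of 0.23 (limma adjusted p = 1.45e-04) and 0.15 (limma adjusted p = 0.0037). The latter call was lost without CTL dish 3 or SAM dish 1 or 2 (-0.13 to -0.11), and with plain read totals (-0.028) or quantile normalization (-0.042), without a variance trend and in a model of CTL and SAM alone. The whole 3240 bases of Slc25a5 lie within Steep1 on the opposite strand, and the pseudogenes Gm5529 and Gm5560 of the table match it over 904 and 891 bases at 96.35% and 97.87%, so its value is uncertain where reads were split.

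Slc25a3, which brings in the phosphate for ATP synthesis, fell in all 3 comparisons, by 0.30 under DZ, 0.28 under adenine and 0.20 under SAM, with dishes at 8.99 to 9.03 log2 CPM in CTL, 8.70 to 8.72 under DZ, 8.72 to 8.73 under adenine and 8.79 to 8.84 under SAM. The fall under SAM was no longer called with plain read totals (-0.074) and turned with quantile normalization (0.057). Slc25a42, which exchanges coenzyme A for adenine nucleotides, rose under adenine (0.33) and SAM (0.47), and its call under adenine was lost without CTL dish 2 or 3 or adenine dish 1 or 2 (0.26 to 0.34), with median centring, with quantile normalization and in a model of CTL and adenine alone. Slc25a42 overlaps Tmem161a on the opposite strand over 70 bases. Slc25a17, a carrier of the peroxisome rather than the mitochondrion, fell under DZ (-0.33) and was at -0.04 under adenine and 0.00 under SAM, not called in either.

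The 9 pyrimidine nucleotide, NAD and cofactor carriers ran in both directions within each treatment. SAM had 2 called higher and 4 lower, adenine had 3 of each, and DZ had 3 higher with Slc25a47 alone lower. Called in either direction were 66.7% under SAM and adenine and 44.4% under DZ, against 69.3%, 61.6% and 45.9% of all genes. Slc25a33, which carries pyrimidine nucleotides into the matrix and whose window with an E-box is shown above, is on chromosome 4 (149828491 to 149858751). It measured 4.36, 4.27 and 4.49 log2 CPM in CTL, 4.95, 5.02 and 5.10 under DZ, 3.73, 3.53 and 3.57 under adenine, and 3.10, 2.83 and 3.22 under SAM. No group overlapped another, with DZ the highest, then CTL, adenine and SAM. It rose by 0.65 under DZ (standard error 0.093, limma adjusted p = 2.83e-05) and fell by 0.77 under adenine (limma adjusted p = 2.34e-06) and by 1.33 under SAM (limma adjusted p = 2.74e-09), to 0.399 of the CTL level. SAM and adenine, both at 1 mM, differed directly by -0.56 (limma adjusted p = 1.24e-04).

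Slc25a36, the other pyrimidine nucleotide carrier, went the other way. It is on chromosome 9 (96950238 to 96993267) and measured 6.64, 6.63 and 6.60 log2 CPM in CTL, 6.66, 6.65 and 6.72 under DZ, 6.94, 6.99 and 7.08 under adenine, and 6.83, 6.78 and 6.69 under SAM. The adenine dishes were above all others, the SAM dishes were above CTL, and DZ was at 0.05 (95% interval -0.04 to 0.14), not called. It rose by 0.38 under adenine (standard error 0.041, limma adjusted p = 6.87e-07) and by 0.14 under SAM (limma adjusted p = 0.00604). The rise under SAM was lost without any 1 of the CTL dishes or SAM dish 1 or 2 (0.11 to 0.15), with median centring, without a variance trend and in a model of CTL and SAM alone. The pseudogene Gm13217 of the table matches Slc25a36 over 987 bases at 96.15%, and its own level in CTL was 2.33 log2 CPM.

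Slc25a26, the SAM carrier (chromosome 6, 94477250 to 94582985), measured 3.26, 3.34 and 3.14 log2 CPM in CTL, 3.36, 3.57 and 3.51 under DZ, 2.81, 2.66 and 2.84 under adenine, and 2.69, 2.86 and 2.72 under SAM. Adenine and SAM dishes were all below CTL and overlapped each other, and the DZ dishes were all above CTL. It fell by 0.48 under adenine (standard error 0.086, limma adjusted p = 1.26e-04) and by 0.49 under SAM (limma adjusted p = 8.91e-05), whereas its value of 0.23 under DZ did not pass the threshold (limma adjusted p = 0.0314). Between SAM and adenine it differed by -0.01 (95% interval -0.19 to 0.17). It overlaps Lrig1 on the opposite strand over 1476 bases. Slc25a32, the carrier of folate and FAD (chromosome 15, 38954620 to 38976159), measured 5.18, 5.24 and 5.14 log2 CPM in CTL, 5.46, 5.50 and 5.53 under DZ, 5.32, 5.25 and 5.11 under adenine, and 5.17, 5.21 and 5.05 under SAM. Only the DZ dishes stood apart from CTL, with a rise of 0.31 (standard error 0.056, limma adjusted p = 2.4e-04), and the differences were 0.04 under adenine (95% interval -0.08 to 0.16) and -0.04 under SAM (95% interval -0.16 to 0.08).

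Slc25a47, a carrier best known from liver (chromosome 12, 108801972 to 108822741), measured 2.67, 2.59 and 2.64 log2 CPM in CTL, 1.79, 1.91 and 1.70 under DZ, 2.07, 2.15 and 1.80 under adenine, and 2.14, 1.98 and 1.89 under SAM. All treated dishes were below CTL, and the treated groups overlapped each other. It fell by 0.83 under DZ (standard error 0.11, limma adjusted p = 1.45e-05), by 0.63 under adenine (limma adjusted p = 1.17e-04) and by 0.63 under SAM (limma adjusted p = 9.5e-05). Its gene overlaps Slc25a29, on the opposite strand, over 230 bases, and these neighbours moved in opposite directions under adenine and SAM. Of the others in this group, the NAD carrier Slc25a51 rose under DZ (0.20) and adenine (0.16) and fell under SAM (-0.12), a fall that was lost without CTL dish 1 or 2 or SAM dish 1 or 3 (-0.12 to -0.096) and was at 0.0029 with plain read totals (it was also lost without a variance trend and in a model of CTL and SAM alone), while its rise under adenine was lost with median centring. Slc25a16, linked to coenzyme A, rose under adenine (0.40) and was at 0.06 under SAM. Slc25a53, with no assigned substrate, was between -0.08 and 0.04 in the 3 comparisons.

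**Figure D3:**
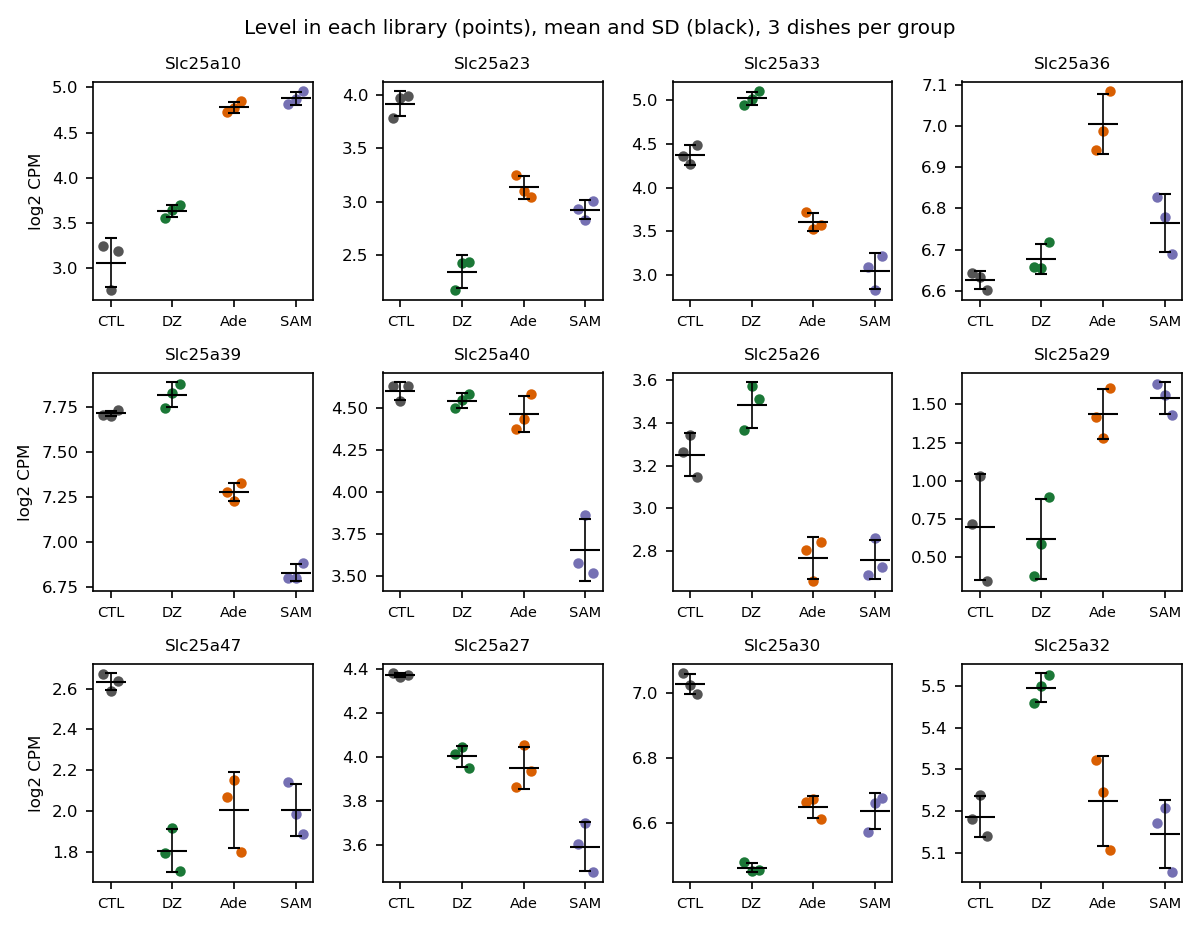
Level of 12 SLC25 genes in each of the 12 libraries (y axis, log2 CPM, a separate scale in each panel that does not start at 0; points, dishes; black lines, mean and SD of 3 dishes; Ade, adenine). Slc25a10 rises from 3.06 ± 0.27 in CTL to 4.88 ± 0.07 under SAM, Slc25a33 is above CTL under DZ and below it under adenine and SAM, and the SAM dishes of Slc25a40 lie below all of its other dishes.

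Among the 4 carboxylate and acylcarnitine carriers, Slc25a10 alone was called under DZ, 3 were called under adenine (Slc25a1 lower, the others higher) and all 4 under SAM (2 in each direction). In this small group these are 25%, 75% and 100%, against 45.9%, 61.6% and 69.3% of all genes. Slc25a10, the dicarboxylate carrier that exchanges malate and succinate for phosphate and sulfur anions, had the largest rise of the family. It is on chromosome 11 (120382359 to 120391985) and measured 3.25, 2.76 and 3.19 log2 CPM in CTL, 3.56, 3.65 and 3.70 under DZ, 4.72, 4.77 and 4.85 under adenine, and 4.82, 4.87 and 4.95 under SAM. CTL dish 2 was the lowest library, and the treated groups lay above all CTL dishes. From 3.06 ± 0.27 log2 CPM (SD, n = 3) in CTL it rose by 0.57 under DZ (standard error 0.10, limma adjusted p = 1.82e-04), by 1.72 under adenine (limma adjusted p = 4.05e-10) and by 1.82 under SAM (limma adjusted p = 1.4e-10), which are 1.48-fold, 3.28-fold and 3.52-fold. SAM and adenine differed by 0.10 (95% interval -0.11 to 0.31), and their dishes overlapped.

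The other 3 carboxylate and acylcarnitine carriers were separated by adenine and SAM. The citrate carrier Slc25a1, which supplies the cytosol with citrate for acetyl-CoA, fell by 0.15 under adenine and rose by 0.26 under SAM, and the direct difference of SAM minus adenine was 0.42 (standard error 0.039, limma adjusted p = 4.4e-07), with SAM dishes at 6.02 to 6.07 and adenine dishes at 5.59 to 5.71 log2 CPM. The oxoglutarate/malate carrier Slc25a11, part of the malate-aspartate shuttle, went the opposite way, 0.23 under adenine and -0.22 under SAM (direct difference -0.44, limma adjusted p = 1.18e-07). Slc25a11 overlaps Rnf167 on the opposite strand over 311 bases. Slc25a20, which imports acylcarnitines for fatty acid oxidation, was at 0.16 under adenine (limma adjusted p = 0.0337), not called, and was called with plain read totals (0.22). It fell by 0.29 under SAM (direct difference -0.45, limma adjusted p = 2.8e-05). The fall of Slc25a1 under adenine was lost without CTL dish 3 or adenine dish 2 or 3 (-0.14 to -0.13) and with plain read totals (-0.091), and the falls of Slc25a11 and Slc25a20 under SAM were lost with plain read totals (-0.095 and -0.16). Transcripts of Ercc4 and Rida match Slc25a20 over 366 and 355 bases at 98.36% and 95.49%. In CTL they stood at 4.06 and 4.59 log2 CPM, against 4.01 for Slc25a20. Ercc4 changed by -0.61 under DZ, -0.63 under adenine and -0.35 under SAM, and Rida by -0.44, 0.46 and 0.435. Whether their reads entered the value of Slc25a20 was not tested.

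Of the 7 amino acid carriers, 4 were called under DZ, all higher, whereas adenine had Slc25a29 called higher and Slc25a12 lower, and SAM had Slc25a29 higher and 3 lower. The shares called were 57.1%, 28.6% and 57.1% under DZ, adenine and SAM, against 45.9%, 61.6% and 69.3% of all genes. The 4 that rose under DZ were Slc25a38, the glycine carrier of heme synthesis (0.36), Slc25a44, which carries branched-chain amino acids (0.27), Slc25a15, the ornithine/citrulline carrier (0.23), and Slc25a22, a glutamate carrier (0.22). Under SAM Slc25a44 (-0.22) and Slc25a15 (-0.25) fell, and both calls were lost with plain read totals. The call of Slc25a15 was lost under DZ without CTL dish 1 or 2 or any 1 of the DZ dishes (0.18 to 0.23) and under SAM without CTL dish 3 (-0.20), and that of Slc25a22 was lost under DZ without CTL dish 3 (0.20). Reads of Slc25a38 are uncertain, since transcripts of Ndufa12, Pea15a, Get1 and Slc10a7 match parts of it at 96.32% to 99.43%. In CTL Ndufa12 and Pea15a stood at 5.82 and 6.08 log2 CPM, against 3.22 for Slc25a38. Under DZ they rose by 0.35 and 0.23, while Get1 and Slc10a7 were not called. Whether such reads entered the value of Slc25a38 was not tested.

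Slc25a29, a carrier of basic amino acids and the least abundant per length (chromosome 12, 108791795 to 108802201), measured 0.72, 1.03 and 0.34 log2 CPM in CTL, 0.37, 0.58 and 0.89 under DZ, 1.42, 1.28 and 1.61 under adenine, and 1.63, 1.56 and 1.43 under SAM. The adenine and SAM dishes lay above all CTL dishes, and DZ overlapped CTL. It rose by 0.74 under adenine (standard error 0.18, limma adjusted p = 0.0017) and by 0.84 under SAM (limma adjusted p = 4.91e-04), on 56 to 182 reads per library. The call under adenine was lost without CTL dish 3 (0.56) or adenine dish 3 (0.65). The aspartate/glutamate carrier Slc25a12, of the malate-aspartate shuttle, fell by 0.28 under adenine and 0.27 under SAM and was at 0.01 under DZ, while its close relative Slc25a13 was not called under any of the 3, with 0.18 under SAM (limma adjusted p = 0.0449), where plain read totals gave a call (0.30).

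The 3 uncoupling protein relatives had no member that was called higher. Slc25a27 and Slc25a30 fell in each comparison and Slc25a14 was called in none (-0.21 under DZ, -0.10 under adenine and -0.08 under SAM). In each comparison 66.7% of the 3 were called, against 45.9% (DZ), 61.6% (adenine) and 69.3% (SAM) of all genes. Slc25a30 (chromosome 14, 75997556 to 76024490) measured 7.06, 7.03 and 7.0 log2 CPM in CTL, 6.48, 6.46 and 6.46 under DZ, 6.67, 6.67 and 6.61 under adenine, and 6.58, 6.66 and 6.68 under SAM. All treated dishes were below CTL, with DZ the lowest, and it fell by 0.56 under DZ (standard error 0.033, limma adjusted p = 2.67e-09), by 0.38 under adenine (limma adjusted p = 6.07e-08) and by 0.39 under SAM (limma adjusted p = 2.96e-08). Slc25a27 (chromosome 17, 43951526 to 43978105) measured 4.38, 4.36 and 4.37 log2 CPM in CTL, 4.01, 4.05 and 3.95 under DZ, 3.87, 4.05 and 3.93 under adenine, and 3.60, 3.70 and 3.48 under SAM. Here SAM was the lowest group, and the falls were 0.37 under DZ (standard error 0.067, limma adjusted p = 2.62e-04), 0.42 under adenine (limma adjusted p = 4.36e-05) and 0.78 under SAM (limma adjusted p = 3.44e-08).

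The 4 iron and glutathione carriers were all called under SAM (3 lower and 1 higher), and 2 were called under adenine and 1 under DZ, all lower. In this group of 4 these are 100%, 50% and 25%, against 69.3%, 61.6% and 45.9% of all genes. Slc25a39, which carries glutathione into the matrix (chromosome 11, 102292585 to 102299602), measured 7.71, 7.70 and 7.73 log2 CPM in CTL, 7.74, 7.83 and 7.88 under DZ, 7.28, 7.23 and 7.33 under adenine, and 6.80, 6.80 and 6.88 under SAM. The adenine dishes were below CTL and the SAM dishes below both. It fell by 0.44 under adenine (standard error 0.038, limma adjusted p = 4.92e-08) and by 0.89 under SAM (limma adjusted p = 6.35e-12), to 0.541 of the CTL level. Under DZ it was 0.10 higher and not called (limma adjusted p = 0.0285), but was called at 0.14 without DZ dish 1 and at 0.13 with plain read totals.

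Slc25a40, the paralog of Slc25a39 (chromosome 5, 8472804 to 8504839), measured 4.63, 4.54 and 4.63 log2 CPM in CTL, 4.50, 4.55 and 4.58 under DZ, 4.37, 4.44 and 4.58 under adenine, and 3.58, 3.86 and 3.51 under SAM. The SAM dishes lay below all other dishes, whereas the DZ and adenine dishes overlapped CTL. It fell by 0.95 under SAM (standard error 0.080, limma adjusted p = 2.81e-08), and its differences were -0.06 under DZ (95% interval -0.23 to 0.12) and -0.14 under adenine (95% interval -0.31 to 0.03). The direct difference of SAM minus adenine was -0.81 (limma adjusted p = 8.27e-07), the largest of the family. Of the mitoferrins, which bring iron into the matrix, Slc25a37 fell under DZ (-0.13), adenine (-0.40) and SAM (-0.32), while Slc25a28 rose under SAM (0.22) and was at 0.10 under DZ and -0.15 under adenine. The call of Slc25a37 under DZ was lost without CTL dish 1 (-0.12) and with quantile normalization, and Slc25a28 was called lower under adenine without CTL dish 2 and with median centring (both -0.20). Transcripts of Gm16867 match Slc25a37 over 382 bases at 100%, and Gm16867 fell by 0.13 under DZ, 0.15 under adenine and 0.35 under SAM.

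The remaining 2 carriers are Slc25a46, a protein of the outer membrane linked to mitochondrial shape, and Slc25a43, with no assigned substrate. Slc25a46 fell by 0.19 under adenine, a call that was lost with plain read totals, and was at 0.03 under DZ and -0.07 under SAM. Slc25a43 was not called against CTL (0.42 under SAM, limma adjusted p = 0.0428), on 66 to 185 reads per library.

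Adenine and SAM were given at the same concentration and for the same time, so they can be compared directly. Between them 15 carriers were called (40.5%, against 42.7% of all genes), 4 higher (20.8% of all genes) and 11 lower (22%) under SAM. With plain read totals 20 were called, 9 higher and 11 lower, and the shares of all genes were not counted with that scaling. Higher under SAM were Slc25a43 (0.65), Slc25a1 (0.42), Slc25a28 (0.36) and Slc25a3 (0.09). Lower under SAM were Slc25a40 (-0.81), Slc25a33 (-0.56), Slc25a20 (-0.45), Slc25a39 (-0.45), Slc25a11 (-0.44), Slc25a27 (-0.36), Slc25a16 (-0.33), Slc25a25 (-0.31), Slc25a51 (-0.28), Slc25a15 (-0.26) and Slc25a36 (-0.24). Among these, 3 carriers were called with an absolute log2 difference of at least 0.5 (8.11%, against 9.65% of all genes). The call of Slc25a43 was lost without adenine dish 2 or 3 or SAM dish 2 or 3 (0.52 to 0.66), that of Slc25a15 without adenine dish 2 (-0.21), and that of Slc25a3 without any 1 of the adenine dishes or SAM dish 2 or 3 (0.071 to 0.090), without a variance trend and in a model of adenine and SAM alone. Calls were gained for Slc25a13 without adenine dish 3 (0.32) or SAM dish 3 (0.29), for Slc25a4 without SAM dish 2 (0.13) and for Slc25a37 without SAM dish 3 (0.11).

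For several of the strongest responders no difference between adenine and SAM was called, and the intervals bound what it could be. They were -0.24 to 0.23 for Slc25a47, -0.08 to 0.06 for Slc25a30, -0.19 to 0.17 for Slc25a26, -0.27 to 0.49 for Slc25a29 and -0.41 to -0.01 for Slc25a23 (limma adjusted p = 0.0725). Against CTL, 21 carriers were called under both adenine and SAM (56.8%, against 52.8% of all genes), 18 of them in 1 direction (48.6%, against 51.6%), and the exceptions were Slc25a1, Slc25a11 and Slc25a51.

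DZ was used at 10 μM, so its differences from adenine and SAM also hold a difference in dose. Between DZ and adenine 26 carriers were called (70.3%, against 64.3% of all genes), 16 higher (32.1% of all genes) and 10 lower (32.2%) under DZ, and between DZ and SAM 28 were called (75.7%, against 69% of all genes), 17 higher (35%) and 11 lower (34%). A difference of 0.5 or more in size was called for 6 carriers in the first (16.2%, against 27.3% of all genes) and 10 in the second (27.0%, against 34.5%). The widest gaps were those of Slc25a33, which was higher under DZ than under adenine by 1.41 and than under SAM by 1.97 (limma adjusted p = 2.44e-11), and of Slc25a10, which was lower by 1.15 and 1.25. Slc25a23 was lower under DZ by 0.79 than under adenine and by 0.58 than under SAM. All of the 5 amino acid carriers other than Slc25a13 and Slc25a29 were higher under DZ than under either of the other treatments, by 0.21 to 0.49, although the call of Slc25a15 against adenine was lost without adenine dish 1 or 3 or any 1 of the DZ dishes (0.17 to 0.22).

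The ratio of related carriers within a library does not depend on the scaling of the library, so 7 pairs with like substrates were also compared, chosen with the values known. The log2 ratio of Slc25a33 to Slc25a36 was -2.25 ± 0.13 in CTL (SD, n = 3), -1.65 ± 0.049 under DZ, -3.40 ± 0.16 under adenine and -3.72 ± 0.25 under SAM, with each treatment apart from CTL (exact permutation p = 0.1 in each, two-sided, the smallest that 3 dishes against 3 allow). The ratio of Slc25a23 to Slc25a24 was -2.29 ± 0.089 in CTL, -3.86 ± 0.14 under DZ, -3.37 ± 0.12 under adenine and -3.59 ± 0.050 under SAM, and that of Slc25a23 to Slc25a25 was -1.29 ± 0.14, -3.16 ± 0.098, -1.90 ± 0.13 and -1.79 ± 0.14. The ratio of Slc25a4 to Slc25a5 fell from 1.20 ± 0.036 in CTL to 1.00 ± 0.040 under DZ, 1.11 ± 0.066 under adenine and 1.13 ± 0.019 under SAM in these dishes, without overlap.

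Slc25a39 and Slc25a40 both fell under SAM, and their ratio was 3.11 ± 0.043 in CTL and 3.18 ± 0.22 under SAM, with overlapping dishes and a wider spread under SAM (exact permutation p = 0.7), which does not show that the ratio was the same. It was 2.81 ± 0.080 under adenine and 3.27 ± 0.027 under DZ. The ratio of Slc25a37 to Slc25a28 was 2.56 ± 0.092 in CTL, 2.33 ± 0.079 under DZ, 2.31 ± 0.061 under adenine and 2.03 ± 0.10 under SAM. The ratio of Slc25a12 to Slc25a13 was 1.95 ± 0.11 in CTL, 1.93 ± 0.081 under DZ and 1.73 ± 0.20 under adenine, which overlapped CTL (exact permutation p = 0.8 and 0.2), and 1.50 ± 0.091 under SAM, which did not. Of the 21 comparisons of a ratio with CTL 18 had the smallest exact p of 0.1, which is 0.117 after adjustment over the 21, so that no ratio could pass 0.05 in this test.

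**Figure D4:**
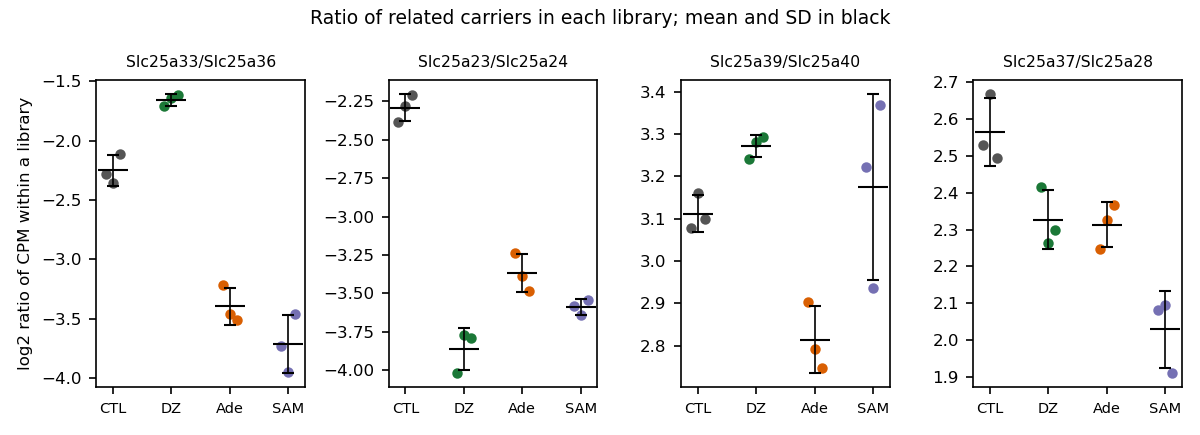
Log2 ratio of the CPM of related carriers in each library (y axis, a separate scale in each panel that does not start at 0; points, dishes; black lines, mean and SD of 3 dishes; Ade, adenine). The ratio of Slc25a33 to Slc25a36 is higher than CTL under DZ and lower under adenine and SAM, and the ratio of Slc25a39 to Slc25a40 under SAM overlaps CTL.

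Other genes of mitochondrial transport were counted in the same fit. Of 5 carrier family genes named otherwise, Mtch1 and Mtch2 were in the table and Ucp1, Ucp2 and Ucp3 were not. Mtch1, an outer membrane member of the family, fell under DZ (-0.35) and rose under adenine (0.25) and SAM (0.30), while Mtch2 fell under adenine (-0.24) and SAM (-0.19). Of 20 carriers and channels outside the family (pyruvate carrier, VDAC, sideroflexins, calcium uniporter and others) DZ had 9 called higher and 4 lower (median 0.10), adenine had 3 higher and 11 lower (median -0.18), and SAM had 3 higher and 10 lower (median -0.19). Called in either direction were 65%, 70% and 65% of these genes under DZ, adenine and SAM, against 45.9%, 61.6% and 69.3% of all genes. The largest were Sfxn2 under DZ (0.57) and Sfxn5 under adenine (0.88) and SAM (1.06).

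Carriers are inserted into the inner membrane by the TIM22 pathway, with the help of Tomm70a at the surface and of small chaperones between the membranes. Of 11 genes of this import route DZ had 7 called higher and 2 lower (median 0.27), adenine had Timm10b higher and 4 lower (median -0.05), and SAM had 2 higher and 5 lower (median -0.04). Of these genes 81.8%, 45.5% and 63.6% were called under DZ, adenine and SAM, to be read against the same shares of all genes. Timm8a1 rose by 0.85 under DZ, and Timm10b rose by 0.67 under adenine and 1.20 under SAM. Of 13 regulators of mitochondrial biogenesis 11 were in the table (Ppargc1a and Ppargc1b were not). DZ had 4 called higher with Esrra lower, adenine had Tfam and Gabpa higher with Polrmt lower, and SAM had 2 higher and 4 lower. Of the 11, 45.5% (DZ), 27.3% (adenine) and 54.5% (SAM) were called, against 45.9%, 61.6% and 69.3% of all genes. Nrf1 rose under DZ (0.48), Tfam, which packages mitochondrial DNA, rose under adenine (0.25), and Tfb2m fell under SAM (-0.53). Of 18 enzymes of the citric acid cycle, whose intermediates the carboxylate carriers move across the inner membrane, DZ and SAM each had 4 called higher and 6 lower, and adenine had 2 higher and 11 lower (55.6% called under DZ and SAM, the latter below the share of all genes, and 72.2% under adenine), led by citrate synthase Cs under DZ (-0.40), Suclg2 under adenine (-0.63) and Ogdh under SAM (0.75).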

How the data were processed

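Polyadenylated RNA of 12 dishes was sequenced as stranded paired-end libraries. The authors trimmed reads with Trimmomatic, aligned them to GRCm39 with HISAT2 guided by GENCODE vM27, quantified them with StringTie and with edgeR removed genes under 1 CPM in any sample. Tool versions, the scaling method and the strand setting of the counting are not given in the sources used here. The authors deposited log2 CPM of normalized library size, and all 12 columns were used. With the prior count of 2 removed, 100% of values came out as whole reads (within 0.01), no gene having fewer than 46. These reads were used for depth, RPKM, voom and plain read totals.

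Genes were tested with limma 3.58.1 in R 4.3.3 (lmFit on group means, eBayes with a variance trend). On simulated data with 200 of 12591 genes changed in DZ against CTL, 86% of changes of 0.5 and 100% of changes of 1 on the log2 scale were recovered, and 1.06% of calls were false. The simulation set a single dispersion for all genes, and far fewer genes changed in it than were called here (45.9% under DZ). Its rates therefore do not describe the errors of the fit to these data. Same-numbered dishes do not deviate together (Pearson r across genes from -0.142 to 0.181 over 18 pairs), so the replicate number was not in the model. Symbols, positions and merged exon lengths come from GENCODE vM39, in which 12575 of the 12591 identifiers were found, and promoters from RefSeq on GRCm38.p6.

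Every carrier is named except 1, which enters the counts and medians and is not reported here by itself. Values of each dish are given for carriers called with a log2 fold change of 0.5 or more in size against CTL and for Slc25a4, Slc25a5, Slc25a26, Slc25a32, Slc25a33 and Slc25a36, named for their substrates. From each other list the called gene with the largest change per comparison is named. The members, lists and tests were chosen with earlier results of these data known. Copies are transcripts with at least 95% identity over at least 300 bases. The alternatives were other variance models, filters, scalings, thresholds and sizes, voom, a pseudocount of 1 CPM, protein-coding genes only, separate models, a replicate block and leaving out each library. Python 3.11.15 was used for tables and plots.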

Additional observations from a re-analysis of the deposited data

How the results depend on the processing

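A required size changed the counts of carriers called most. Where a log2 fold change of 0.5 or more in size was required, the counts were 5 for DZ, 5 for adenine and 8 for SAM against CTL, 3 for SAM against adenine, 6 for DZ against adenine and 10 for DZ against SAM, and with at least 1 they were 1, 1, 2, 0, 2 and 2. Shares of all genes were counted for the main fit and for the size of 0.5 only. Where the count was 0, limma gave 22 carriers at an unadjusted p under 0.05 without a required size and 0 with it, and voom also gave 0 with it. Under all other alternatives the counts stayed within 1.5 times the reported ones. With the replicate block they were 18, 22, 27, 16, 25 and 28 in the same order. Under the block Slc25a39 was called under DZ (0.10, limma adjusted p = 0.00985), and the calls of Slc25a42 under adenine (0.33, limma adjusted p = 0.0106) and of Slc25a1 between DZ and adenine were lost. Leaving out 1 dish gave 15 to 16 for DZ, 20 to 22 for adenine and 24 to 26 for SAM against CTL, 12 to 15 for SAM against adenine, 23 to 25 for DZ against adenine and 26 to 29 for DZ against SAM. The direction turned for Slc25a4 (0.039) and Slc25a3 (0.057) under SAM with quantile normalization, and for Slc25a51 (0.0029) under SAM with plain read totals, and the cause was not tested. Setting aside the required sizes, 13 of 17 calls under DZ, 17 of 23 under adenine and 18 of 27 under SAM were kept wherever the gene was tested. Carriers with few reads, such as Slc25a29 and Slc25a43, have the widest intervals.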
